A study of Homo sapiens with 10 samples.

Results

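The 10 genes described here make up the core of transforming growth factor beta (TGF-beta) signaling that was followed across 4 lines of the human prostate cancer cell line PC3. They were chosen by name, with earlier results of these data known. They are the ligands TGFB1 and TGFB2, the ligand-binding protein LTBP1, and the receptors TGFBR1, TGFBR2 and TGFBR3. The others are the signal transducer SMAD3, the inhibitors SMAD7 and SKIL, and the target gene TGFBI. Each of the 10 matched 1 of the 23170 entries of the deposited gene tables, and together they hold 28 of the 37557 isoform entries. RNA-seq covered 10 samples. PC3-Epi (2 samples) is a luciferase-positive subpopulation of PC3 that was picked for brightness and a stable epithelial shape. PC3-EMT14 (3 samples) is 1 mesenchymal subpopulation, isolated after PC3-Epi had been cultured with human macrophages made by treating monocytes with IL4. In PC3-EMT14-OVOL1 (3 samples) and in PC3-EMT14-OVOL2 (2 samples), the mesenchymal cells carry a lentivirus overexpressing the zinc finger transcription factor OVOL1 or OVOL2. All 4 lines thus descend from the same epithelial cells. The labels name the reference as PC3-EMT14 and mention no empty vector for it, so an effect of the transduction itself cannot be told apart from that of the OVOL gene.

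TGF-beta ligands are secreted as latent complexes that are tethered to the matrix through latent TGF-beta binding proteins such as LTBP1, and integrins or thrombospondin-1 can release them. Free ligand brings together the type II receptor TGFBR2 and the type I receptor TGFBR1, with TGFBR3 (betaglycan) presenting TGF-beta2 in particular. The type I receptor phosphorylates SMAD2 and SMAD3, which enter the nucleus with SMAD4, while SMAD7 and the co-repressor SKIL (SnoN) restrain the signal. In carcinoma cells the pathway is best known as an inducer of the epithelial-mesenchymal transition (EMT), the loss of epithelial character for a migratory one, and OVOL factors are known for keeping cells epithelial.

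The unit throughout is FPKM, fragments scaled by transcript length and between libraries, the latter here with upper-quartile normalization. The scaling by length allows levels of different genes to be set side by side. The deposited tables give the authors' pooled value of a line, 1 for each line in each of 4 comparisons. The spread between samples and the depth of each sample are therefore unknown, and no SD, interval or test could be made from the values for any ratio. The tables' own test results were not used. A gene is counted here as higher or lower in a line when its ratio to the other line of the same table is at least 2 or at most 0.5 and the higher value is at least 1 FPKM. That is a rule of size, and a difference that passes it is not shown to exceed the replicate error. The values of 1 line in different tables are the same estimate under a different scaling: for these 10 genes they differed by at most 3.31%. As these are bulk samples, a lower level could come from fewer cells with the message or from less of it per cell, and these cannot be told apart.

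The transgenes matched the labels. OVOL1 was at 0.0238 FPKM in PC3-EMT14 beside 11.3 FPKM in PC3-EMT14-OVOL1, and OVOL2 was at 0.37 FPKM in PC3-EMT14 beside 831 FPKM in PC3-EMT14-OVOL2. PC3-Epi had 4.25 FPKM of OVOL1 and 9.91 FPKM of OVOL2, so each line exceeded the epithelial level of its own transgene, the OVOL2 line by far more than the OVOL1 line. Any difference between the OVOL lines below is thus one between factors that also differ in level. The paper's methods also give different lentiviral constructs for OVOL1 and OVOL2. Factor, level and construct cannot be told apart. Summed over 8 epithelial genes, PC3-EMT14, the OVOL1 line, the OVOL2 line and PC3-Epi had 912, 1040, 1597 and 1865 FPKM. Over 6 mesenchymal genes they had 343, 226, 112 and 92.5 FPKM. The sums rest mostly on abundant genes, with KRT19 at 671 FPKM and VIM at 271 FPKM in PC3-EMT14. CDH1, EPCAM, KRT8, KRT18, CLDN7, VIM and ZEB1 followed the order of the sums, and TWIST1 differed little with either OVOL gene. KRT19, CDH2, FN1 and SNAI2 did not follow it. Nor did ESRP1, which was far above PC3-EMT14 in each other line but slightly higher with OVOL1 than with OVOL2. It was at 0.415 FPKM in PC3-EMT14 beside 84.6 FPKM in PC3-Epi, with 15.2 FPKM in the OVOL1 line and 11.7 FPKM in the OVOL2 line. The deposited tables mark the calculation for ESRP1 as failed in both comparisons of the OVOL2 line. RAB25 stayed under 1 FPKM in both OVOL lines, beside 24.2 FPKM in PC3-Epi. Of 12 macrophage genes only CD68, which tumor cells also use, reached 1 FPKM in any line (54.1 FPKM in PC3-EMT14 beside 13.2 FPKM in PC3-Epi). The leukocyte gene PTPRC was at 0.0161 FPKM and CD14 at 0.0861 FPKM in PC3-EMT14. Of 6 fibroblast genes only COL1A1 reached 1 FPKM, with 3.69 FPKM in PC3-EMT14. Of 5 genes of the prostate luminal lineage, KLK3 and KLK2 were listed at 0 in every line.

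The sequences before the annotated starts of the genes that differed most between the lines, and of TGFB1 as the other ligand, are shown first. Which of these starts the lines use was not analysed. Each line gives the 250 bases upstream of a RefSeq transcript start on GRCh38.p14, read 5′ to 3′ on the strand of the gene, and capitals mark CAGACA or its reverse complement TGTCTG, an extended form of the short element that SMAD proteins bind.
TGFB2, chr1:218345086-218345335, plus strand: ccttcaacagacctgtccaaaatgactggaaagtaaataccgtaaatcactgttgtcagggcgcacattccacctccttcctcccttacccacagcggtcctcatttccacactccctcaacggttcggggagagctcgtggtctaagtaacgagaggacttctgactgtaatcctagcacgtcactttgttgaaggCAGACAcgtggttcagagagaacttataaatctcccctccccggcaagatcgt
TGFB1, chr19:41353923-41354172, minus strand: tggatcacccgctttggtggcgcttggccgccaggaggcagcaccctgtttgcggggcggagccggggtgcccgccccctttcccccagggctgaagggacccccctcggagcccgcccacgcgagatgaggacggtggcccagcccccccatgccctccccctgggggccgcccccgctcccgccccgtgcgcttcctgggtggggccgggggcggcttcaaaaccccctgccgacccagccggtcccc
LTBP1 promoter 1, chr2:32946703-32946952, plus strand: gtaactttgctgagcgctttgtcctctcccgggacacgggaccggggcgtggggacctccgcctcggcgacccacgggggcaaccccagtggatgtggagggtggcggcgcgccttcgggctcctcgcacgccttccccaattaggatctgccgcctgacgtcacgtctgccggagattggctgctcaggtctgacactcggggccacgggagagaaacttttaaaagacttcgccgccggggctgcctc
LTBP1 promoter 2, chr2:33134119-33134368, plus strand: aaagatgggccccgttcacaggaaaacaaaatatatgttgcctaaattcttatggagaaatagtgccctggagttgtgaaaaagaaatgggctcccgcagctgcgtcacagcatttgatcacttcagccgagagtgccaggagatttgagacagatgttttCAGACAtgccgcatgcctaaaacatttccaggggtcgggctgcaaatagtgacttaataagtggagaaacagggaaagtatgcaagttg
LTBP1 promoter 3, chr2:33134346-33134595, plus strand: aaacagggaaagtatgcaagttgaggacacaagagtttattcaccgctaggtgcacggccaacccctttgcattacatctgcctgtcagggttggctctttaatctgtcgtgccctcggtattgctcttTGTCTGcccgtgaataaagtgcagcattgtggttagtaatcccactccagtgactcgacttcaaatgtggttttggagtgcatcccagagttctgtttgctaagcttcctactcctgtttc
TGFBI, chr5:136028738-136028987, plus strand: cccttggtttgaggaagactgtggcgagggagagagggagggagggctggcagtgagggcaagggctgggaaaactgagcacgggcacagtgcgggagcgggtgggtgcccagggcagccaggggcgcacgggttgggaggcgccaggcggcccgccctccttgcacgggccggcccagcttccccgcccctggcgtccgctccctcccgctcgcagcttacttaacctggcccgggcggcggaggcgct

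The upstream stretches of the ligands were unlike in composition: that of TGFB1 was 76.8% G and C, against 50.4% for TGFB2 and a median of 58% over 34796 RefSeq promoters of this length. The TGFB2 stretch holds CAGACA with its first base 53 bases before the start, and the TGFB1 stretch does not hold it. LTBP1 has 3 listed starts. The first lies 187416 bases upstream of the second, in a stretch with 66.4% G and C and without the letters searched, while the second and the third lie 227 bases apart in stretches with 45.2% and 47.6% G and C, each with 1 match. The TGFBI stretch, with 72.8% G and C, holds no match. CAGACA on either strand occurs in 13.6% of the 34796 promoters and in 6 of the 26 promoters of the 10 genes. These 6 belong to 4 genes (LTBP1, SMAD3, TGFB2 and TGFBR1). The palindrome GTCTAGAC, found in 0.178% of promoters, is in none of the 26 promoters of the 10 genes. CCGTTA, a core of OVO-type binding sites, is in 2.46% of promoters and in 1 of the 26, a promoter of TGFBR2. The ZEB-type E-box CAGGTG is in 17.5% of promoters and in 5 of the 26, which belong to SMAD3, SMAD7 and TGFBR1. The AP-1 element TGAGTCA is in 4.21% of promoters and in 1 of the 26, a promoter of SMAD3. The motifs were searched on both strands and do not contain one another. A match is only a run of letters, and none of them was tested for binding.

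TGFB2 differed more between the lines than any other of the 10 genes. It encodes TGF-beta2 (XLOC_001014, chr1:218518676-218617961 on the plus strand of hg19). Its level was 1.12 FPKM in PC3-EMT14 beside 24.9 FPKM in PC3-Epi. In the comparison of PC3-EMT14-OVOL1, TGFB2 was at 1.10 FPKM in PC3-EMT14 beside 3.44 FPKM in the OVOL1 line. In that of PC3-EMT14-OVOL2, it was at 1.09 FPKM in PC3-EMT14 beside 10.3 FPKM in the OVOL2 line. The order was the same as that of the summed epithelial genes: the mesenchymal line had the least, then the OVOL1 line, the OVOL2 line and PC3-Epi. Relative to PC3-EMT14, TGFB2 was 22.2-fold higher in PC3-Epi (log2 ratio 4.47), 3.14-fold higher with OVOL1 (1.65) and 9.51-fold higher with OVOL2 (3.25). Ranked by log2 ratio from the highest down, TGFB2 held rank 146 of 12441 genes in PC3-Epi, rank 175 of 12197 with OVOL1 and rank 125 of 12307 with OVOL2. The OVOL lines set side by side in their own table had 3.40 and 10.3 FPKM, 3.03-fold more with OVOL2. Nearly all of the TGFB2 message was assigned to TCONS_00001706, which held 97.9% in PC3-EMT14 and 96.1% in PC3-Epi. Since PC3-EMT14 is near 1 FPKM, each ratio of TGFB2 to it rests on a low denominator: with 1 FPKM added to both values, the log2 ratio in PC3-Epi is 3.61.

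TGFB1 was the more abundant ligand in every line and differed less. It encodes TGF-beta1 (XLOC_011117, chr19:41836812-41859831, minus strand, hg19). Its levels were 50 FPKM in PC3-EMT14 beside 29.5 FPKM in PC3-Epi, a log2 ratio of -0.76. With OVOL1 it was at 44.8 FPKM against 49.0 FPKM in PC3-EMT14 (-0.13), and with OVOL2 at 34.9 FPKM against 48.4 FPKM (-0.47). None of these ratios reached 2-fold, and the order of the lines was the reverse of that for TGFB2.

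The ligand messages as a group therefore differed in their make-up more than in their sum. TGFB3, the gene of the remaining ligand, was at 4.67 FPKM in PC3-EMT14 beside 4.12 FPKM in PC3-Epi. The 3 messages summed to 55.8 FPKM in PC3-EMT14 beside 58.5 FPKM in PC3-Epi. TGFB2 made up 2.01% of that sum in PC3-EMT14, 6.65% in the OVOL1 line, 21% in the OVOL2 line and 42.5% in PC3-Epi. The level of TGFB1 was 44.7 times that of TGFB2 in PC3-EMT14, 13 times in the OVOL1 line, 3.38 times in the OVOL2 line and 1.19 times in PC3-Epi. In the OVOL tables the sums were 54.6 FPKM in PC3-EMT14 beside 51.7 FPKM with OVOL1, and 54 FPKM in PC3-EMT14 beside 49 FPKM with OVOL2.

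**Figure D1:**
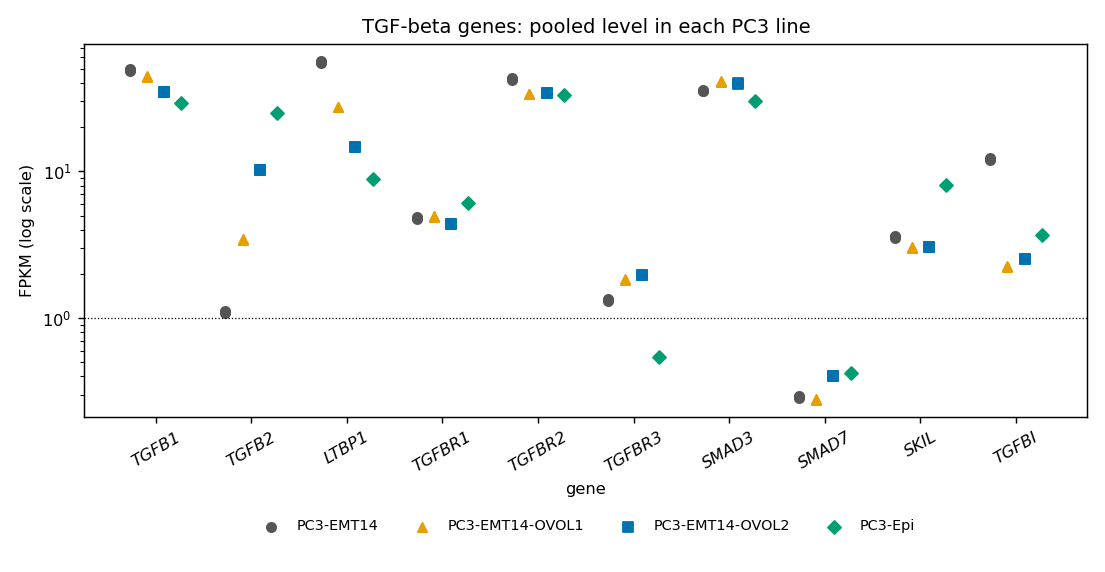
Pooled FPKM of each of the 10 genes (x axis) on a log scale (y axis) in the 4 lines. Every table's value is drawn, so PC3-EMT14 has 3 overlapping points and each OVOL line 2, which differ by scaling only, and no error bar exists. The dotted line marks 1 FPKM. TGFB2 is lowest in PC3-EMT14 at 1.12 FPKM and highest in PC3-Epi at 24.9 FPKM, LTBP1 runs the other way from 56.7 to 8.89 FPKM, and SMAD7 stays under 1 FPKM.

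LTBP1 ran in the opposite direction to TGFB2. Its product holds latent TGF-beta in the matrix (XLOC_011548, chr2:33172369-33624575, plus strand, hg19). LTBP1 was at 56.7 FPKM in PC3-EMT14 beside 8.89 FPKM in PC3-Epi, 6.37-fold lower (log2 ratio -2.67). Against 55.5 FPKM in PC3-EMT14, the OVOL1 line had 27.7 FPKM, a ratio that lies just past the 2-fold limit. Against 54.9 FPKM, the OVOL2 line had 14.7 FPKM, 3.74-fold lower (-1.90). With the log2 ratios centred on the median of all genes, or with 1 FPKM added to both values (-0.97), the OVOL1 ratio no longer passed the limit. Counted from the lowest log2 ratio up, LTBP1 held rank 278 in PC3-Epi, 188 with OVOL1 and 112 with OVOL2. Directly compared, the OVOL lines had 27.4 and 14.7 FPKM (-0.90), within 2-fold.

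Among the latent TGF-beta binding proteins, LTBP1 and LTBP4 carried the differences. LTBP4 was at 15.5 FPKM in PC3-EMT14 beside 5.92 FPKM in PC3-Epi (-1.39), and within 2-fold in the OVOL lines (-0.15 and -0.53). LTBP2 and LTBP3 were within 2-fold in every comparison, with log2 ratios between -0.21 for LTBP3 in PC3-Epi and 0.43 for LTBP2 with OVOL2. The sum of the 4 messages was 97.9 FPKM in PC3-EMT14, 67 FPKM in the OVOL1 line, 55.2 FPKM in the OVOL2 line and 37.9 FPKM in PC3-Epi. LTBP1 made up 57.9% of the sum in PC3-EMT14 and 23.5% in PC3-Epi, where LTBP3 had 50%.

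**Figure D2:**
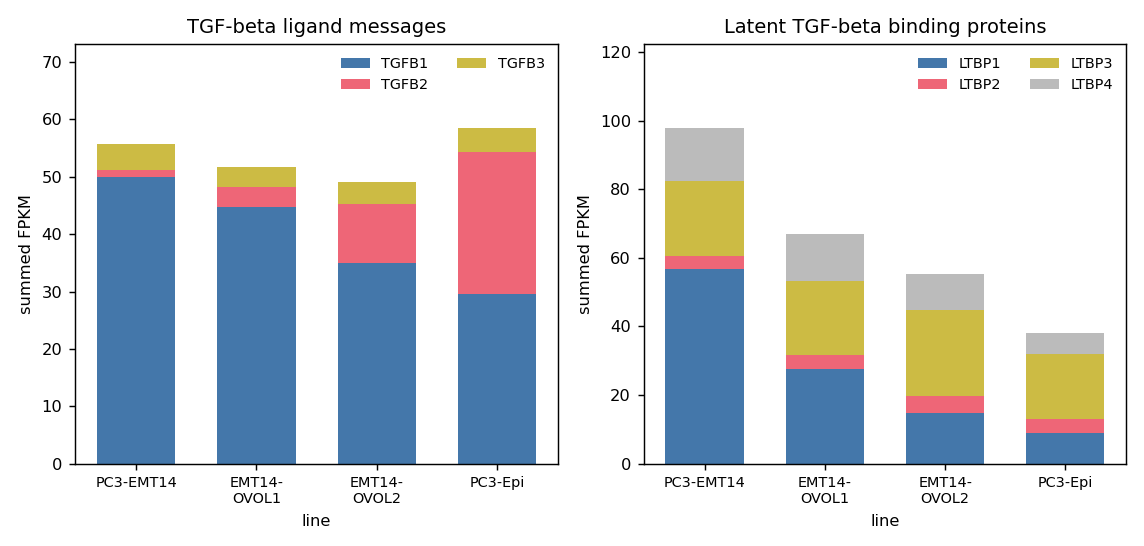
Stacked bars of pooled FPKM (y axes, from 0) in each line (x axes) for the 3 ligand genes (left) and the 4 latent TGF-beta binding protein genes (right). PC3-EMT14 is drawn from its table with PC3-Epi, and the OVOL lines from their tables with PC3-EMT14. The ligand sums lie between 49 and 58.5 FPKM while the TGFB2 part widens from 2.01% to 42.5%, and the LTBP sum runs from 97.9 down to 37.9 FPKM.

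The isoform tables split LTBP1 into 5 entries, and 1 of them stayed level. TCONS_00018675 was at 2.94 FPKM in PC3-EMT14, 2.64 FPKM in the OVOL1 line, 2.66 FPKM in the OVOL2 line and 2.73 FPKM in PC3-Epi. The other 4 entries summed to 53.7 FPKM in PC3-EMT14 beside 6.16 FPKM in PC3-Epi, a log2 ratio of -3.12, beside -0.11 for TCONS_00018675. With OVOL1 the log2 ratios were -1.07 for the 4 entries and -0.13 for TCONS_00018675, and with OVOL2 they were -2.12 and -0.10. TCONS_00018675 thus made up 5.19% of LTBP1 in PC3-EMT14 and 30.7% in PC3-Epi, and TCONS_00018676, at 22 and 0.713 FPKM, passed from 38.9% to 8.02%. These are the 2 member isoforms whose share shifted by at least 20 percentage points in that comparison, where 3.73% of 13739 isoforms did so. As shares of the same gene, the 2 are not independent of each other. An isoform's share was compared only in entries with several isoforms whose summed FPKM was at least 1 in both lines. The isoform entries carry the locus of the gene but no exons, so which of the 3 listed starts of LTBP1 each entry uses was not analysed here.

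**Figure D3:**
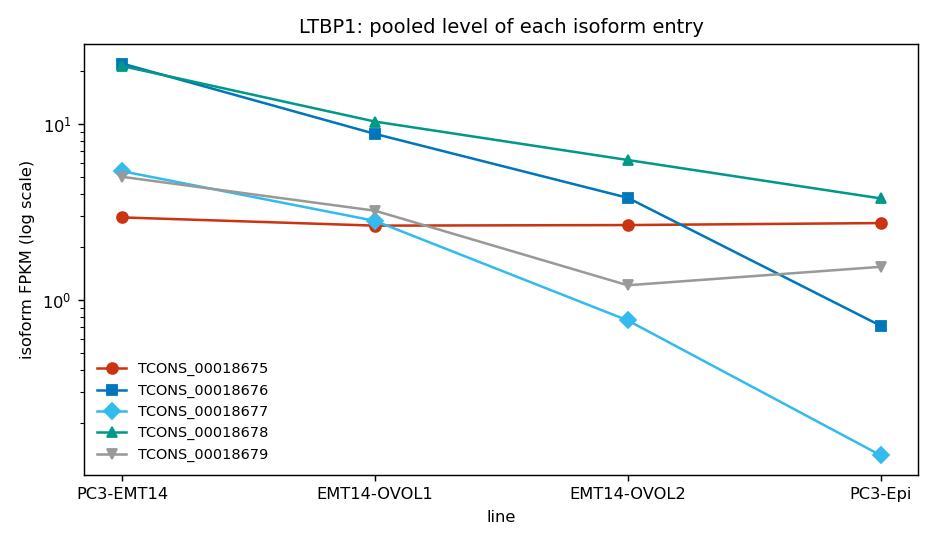
Pooled FPKM on a log scale (y axis) of the 5 LTBP1 isoform entries in the 4 lines (x axis), with a line joining the values of 1 entry. PC3-EMT14 is drawn from its table with PC3-Epi. TCONS_00018675 lies between 2.64 and 2.94 FPKM in all lines, whereas TCONS_00018676 runs from 22 down to 0.713 FPKM.

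The signaling receptors were within 2-fold of PC3-EMT14 in every line. TGFBR1, the type I receptor kinase (chr9:101867412-101916473, plus strand), was at 4.92 FPKM in PC3-EMT14 beside 6.09 FPKM in PC3-Epi (log2 ratio 0.31), and its ratios were 0.04 with OVOL1 and -0.13 with OVOL2. TGFBR2, the type II receptor (chr3:30647994-30735633, plus strand), was at 43.6 FPKM in PC3-EMT14 beside 33.4 FPKM in PC3-Epi (-0.39), with ratios of -0.33 and -0.30 in the OVOL lines. The TGFBR2 message was therefore 8.85 times as abundant as that of TGFBR1 in PC3-EMT14 and 5.48 times in PC3-Epi. Neither gene had an isoform share shift.

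The co-receptor TGFBR3 (chr1:92145900-92371559, minus strand) was the one receptor past 2-fold, and the lines did not order as for the ligands. It was at 1.35 FPKM in PC3-EMT14 beside 0.539 FPKM in PC3-Epi (-1.33), but at 1.84 FPKM against 1.32 FPKM with OVOL1 (0.48) and 1.98 FPKM against 1.31 FPKM with OVOL2 (0.60). All of these levels are low, and with 1 FPKM added to both values the ratio in PC3-Epi is -0.61, within 2-fold. At isoform level, TCONS_00002625 held 17.4% of TGFBR3 in PC3-EMT14, 53.4% in the OVOL1 line and 13.9% in the OVOL2 line, with TCONS_00002626 holding most of the rest. These entries gave 2 shifts with OVOL1, where the share over all isoforms was 1.57%, and 2 between the OVOL lines, where it was 1.8%. In each pair the rise of 1 entry mirrors the fall of the other, so the 2 shifts are not separate changes. Both comparisons also use the same OVOL1 libraries. No member isoform shifted with OVOL2 against PC3-EMT14, where 2.73% of all isoforms did. The shifts in TGFBR3 are between values under 2 FPKM and were not counted at a minimum of 5 FPKM.

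SMAD3, the transducer (chr15:67358195-67487533, plus strand), stayed close to its level in PC3-EMT14. It was at 36.2 FPKM there and 30.2 FPKM in PC3-Epi (-0.26), a pair for which the deposited table marks its own calculation as failed. With OVOL1 it was at 41.1 FPKM against 35.5 FPKM (0.21), and with OVOL2 at 39.8 FPKM against 35.1 FPKM (0.18). SMAD3 was 11.8 times as abundant as SMAD2, its partner receptor SMAD, in PC3-EMT14 and 9.44 times in PC3-Epi. A minor SMAD3 entry, TCONS_00011236, was at 1.57 FPKM in PC3-EMT14, 3.58 FPKM in the OVOL1 line and 0.0264 FPKM in PC3-Epi, and was listed at 0 in the OVOL2 line. It made up at most 8.74% of SMAD3 in any line.

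Of the inhibitors among the 10 genes, SKIL passed 2-fold in PC3-Epi. SKIL, which represses SMAD target genes (chr3:170075473-170110950, plus strand), was at 3.65 FPKM in PC3-EMT14 beside 8.03 FPKM in PC3-Epi, 2.20-fold higher (1.14). With 1 FPKM added to both values, that ratio is 0.96, within 2-fold. With the OVOL genes it was slightly below PC3-EMT14, at 3.05 FPKM against 3.58 FPKM (-0.23) and 3.04 FPKM against 3.54 FPKM (-0.22). SMAD7, which competes with SMAD3 at the receptor (chr18:46446223-46477081, minus strand), was under 1 FPKM in every line, between 0.276 and 0.425 FPKM, and was not counted in either direction.

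TGFBI differed between the OVOL lines and PC3-EMT14 at least as much as between PC3-Epi and PC3-EMT14. It encodes a secreted matrix protein induced by TGF-beta (XLOC_016436, chr5:135364584-135399507, plus strand). TGFBI was at 12.4 FPKM in PC3-EMT14 beside 3.67 FPKM in PC3-Epi, 3.38-fold lower (-1.76). With OVOL1 it was at 2.25 FPKM against 12.2 FPKM, 5.40-fold lower (-2.43), and with OVOL2 at 2.54 FPKM against 12.0 FPKM, 4.73-fold lower (-2.24). From the lowest log2 ratio up, TGFBI held rank 49 with OVOL1, rank 87 with OVOL2 and rank 478 in PC3-Epi. The direct comparison of the OVOL lines gave 2.23 and 2.54 FPKM (0.19). For TGFBI the OVOL1 line was thus the furthest from PC3-EMT14, whereas for TGFB2 and LTBP1 it was the nearest.

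Counted over the 10 genes, SMAD7 was under the minimum level and the other 9 could be counted. In PC3-Epi 2 of them were higher than in PC3-EMT14 (TGFB2 and SKIL), where 7.37% of 12441 genes were, and 3 were lower (LTBP1, TGFBR3 and TGFBI), where 8.34% were. With OVOL1, TGFB2 was higher, where 2.43% of 12197 genes were, and LTBP1 and TGFBI were lower, where 1.54% were. With OVOL2, TGFB2 was likewise higher, where 4.42% of 12307 genes were, and LTBP1 and TGFBI were lower, where 2.93% were. Between the OVOL lines TGFB2 alone passed, higher with OVOL2, where 1.9% of 12188 genes were higher and 1.17% lower. The median log2 ratio of the 9 genes was -0.39 in PC3-Epi, -0.13 with OVOL1 and -0.22 with OVOL2, beside -0.01, -0.00 and -0.04 over all genes. All 3 ratios of a gene have the same PC3-EMT14 libraries below the line, so their directions are not independent of one another.

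**Figure D4:**
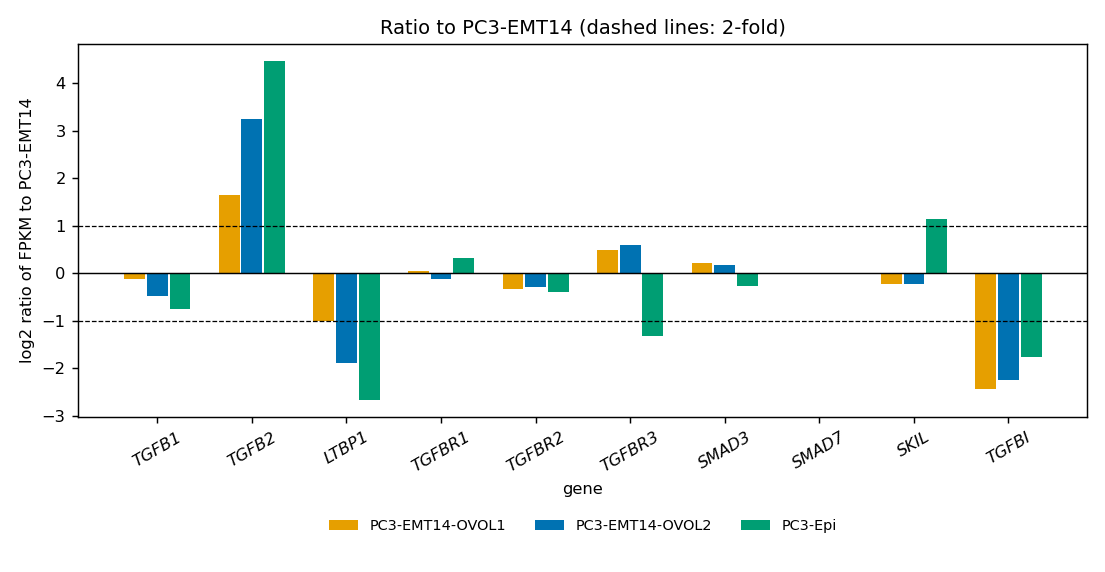
The log2 ratio of FPKM to PC3-EMT14 (y axis) for each gene (x axis) in the OVOL1 line, the OVOL2 line and PC3-Epi, each bar from 1 table, with dashed lines at 2-fold. SMAD7 is under 1 FPKM and has no bar. TGFB2 stands at 1.65, 3.25 and 4.47, LTBP1 at the lower 2-fold line, -1.90 and -2.67, and TGFBI at -2.43, -2.24 and -1.76.

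The genes with a pattern most like that of TGFB2, the member with the widest range of ratios, were sought among 9494 genes of at least 5 FPKM in some line, by Euclidean distance over the 3 log2 ratios to PC3-EMT14. The nearest was THBS1, at a distance of 0.33, followed by TMEM30B (0.38) and the epithelial transcription factor EHF (0.74). THBS1 encodes thrombospondin-1, which can activate latent TGF-beta. It was at 6.29 FPKM in PC3-EMT14 beside 126 FPKM in PC3-Epi (log2 ratio 4.32), with 15.8 FPKM in the OVOL1 line (1.36) and 56.4 FPKM in the OVOL2 line (3.21). TMEM30B was at 2.91 FPKM in PC3-EMT14 beside 70.6 FPKM in PC3-Epi.

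A list of 71 other pathway genes, also chosen with earlier results known, was read by role. Of these, 23 passed 2-fold in at least 1 line. In PC3-Epi 8 were higher and 8 lower among 63 that reached 1 FPKM. With OVOL1, 3 were higher and 4 lower of 61, and with OVOL2, 4 were higher and 5 lower of 59. The median log2 ratio of the list was 0.05, -0.05 and -0.05. As shares of the genes counted, 12.7% were higher and 12.7% lower in PC3-Epi, 4.92% and 6.56% with OVOL1, and 6.78% and 8.47% with OVOL2, to be read beside the shares over all genes given above.

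Genes for ligand release had the highest ratios of the list in PC3-Epi, taken without a pseudocount, with THBS1 second to ITGB6. ITGB6, the beta6 integrin subunit that activates latent TGF-beta1, was at 0.0787 FPKM in PC3-EMT14 beside 6.28 FPKM in PC3-Epi (6.32), and remained under 0.1 FPKM in both OVOL lines. ITGB8, the subunit of another activating integrin, was at 0.848 and 3.64 FPKM (2.10) in the same pair. The ratios of both integrin genes rest on a denominator under 1 FPKM, so their size and rank are uncertain. With LTBP4 lower, this gave 3 higher and 1 lower of 8 latency and activation genes in PC3-Epi, where 7.37% and 8.34% of all genes were. THBS1 was the 1 gene past 2-fold of that role in each OVOL line. Over all genes, 2.43% were higher with OVOL1 and 4.42% with OVOL2. Of the other ligands, INHBA, a subunit of activins, had the opposite direction in PC3-Epi (32.3 FPKM against 53.0 FPKM, -0.71) and with OVOL2 (124 FPKM against 51.4 FPKM, 1.27). None of 7 further transducers passed 2-fold in any line.

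Of the other receptors, the co-receptor ENG alone passed, at 0.527 FPKM in PC3-EMT14 beside 2.53 FPKM in PC3-Epi (2.26). Its ratio rests on a denominator under 1 FPKM. In the OVOL lines ENG was below PC3-EMT14, at 0.332 FPKM with OVOL1 and 0.233 FPKM with OVOL2, levels too low to be counted. Of 13 other inhibitors, 2 were higher in PC3-Epi, where 7.37% of all genes were. SMAD6, an inhibitory SMAD, was at 4.22 FPKM in PC3-EMT14 beside 10.7 FPKM in PC3-Epi (1.35). PMEPA1, a TGF-beta-induced inhibitor, was at 3.00 and 15.9 FPKM (2.41), but at 1.24 FPKM against 2.90 FPKM with OVOL2 (-1.22). The deposited tables mark the calculation for PMEPA1 as failed in all 3 comparisons with PC3-EMT14.

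Target genes past 2-fold were found in both directions. The targets were not separated by whether TGF-beta raises or lowers them, so the counts and medians below do not measure signaling. Of 26 that could be counted in PC3-Epi, 2 were higher and 7 lower, where 7.37% and 8.34% of all genes were, and their median log2 ratio was -0.64. In each OVOL line 2 were higher and 4 lower of 25, with medians of -0.39 for OVOL1 and -0.07 for OVOL2. Over all genes, 2.43% were higher and 1.54% lower with OVOL1, and 4.42% and 2.93% with OVOL2.

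SNAI2, which encodes the EMT factor Slug, was lower in all 3 lines: 1.35 FPKM against 4.05 FPKM in PC3-Epi (-1.59), 1.47 FPKM against 3.96 FPKM with OVOL1 (-1.43) and 1.80 FPKM against 3.92 FPKM with OVOL2 (-1.12). SNAI1, which encodes Snail, was instead higher in both OVOL lines, at 2.67 FPKM against 1.32 FPKM (1.02) and 2.65 FPKM against 1.30 FPKM (1.02). These ratios lie just past the 2-fold limit and rest on low levels. In PC3-Epi, SNAI1 was at 2.46 FPKM against 1.35 FPKM (0.87), the same direction but within 2-fold. ID2, an inhibitor of helix-loop-helix factors, had log2 ratios of -1.75 in PC3-Epi and -1.16 with OVOL1, and the cytokine gene IL11 had -1.27 and -1.67. The related ID3 passed with OVOL1 only by this rule, at -1.30, beside -0.15 with OVOL2.

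Further targets lower in PC3-Epi were BHLHE40 (-2.26), ACTA2 (-1.63) and PTHLH (-1.51), and the higher ones were the actin-binding genes TAGLN (2.29) and TPM1 (1.12). The tables mark the calculation for PTHLH and TPM1 in this comparison as failed. The ratios of TAGLN and ACTA2 rest on low levels. TAGLN was at 0.585 FPKM in PC3-EMT14 beside 2.86 FPKM in PC3-Epi, and ACTA2 at 1.08 beside 0.349 FPKM. With OVOL2 the matrix genes CTGF and FN1 were lower, at -1.75 and -1.11, and CYR61, a relative of CTGF, was higher at 1.01. PDGFB was higher with OVOL1, at 1.01. FN1 was at 33.8 FPKM against 36.8 FPKM in PC3-Epi, so the log2 ratio there was -0.12, and it was -0.97 with OVOL1.

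**Figure D5:**
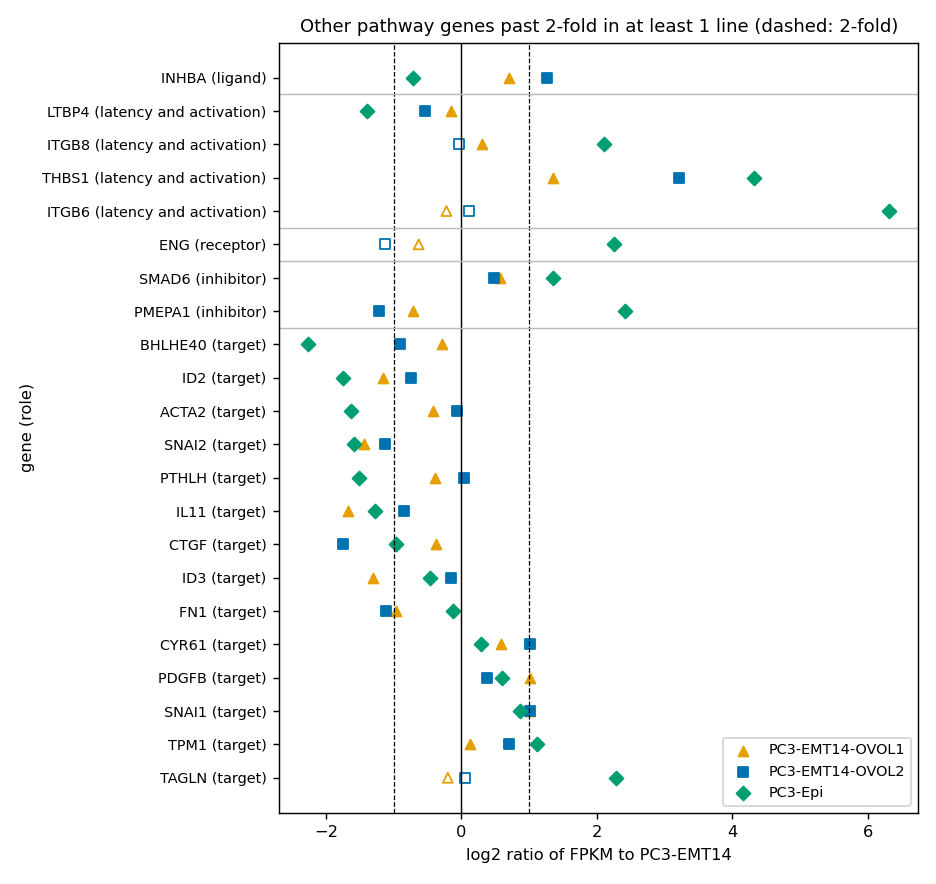
The log2 ratio of FPKM to PC3-EMT14 (x axis) for 22 other pathway genes past 2-fold in at least 1 line (y axis, grouped by role), with dashed lines at 2-fold. Filled points reach 1 FPKM in at least 1 of the lines compared and open points do not. THBS1 lies to the right in all lines (1.36, 3.21 and 4.32), SNAI2 to the left in all (-1.43, -1.12 and -1.59), and ITGB6 is at 6.32 in PC3-Epi.

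The OVOL lines were also compared with each other at these genes. Of 57 that reached 1 FPKM, 2 were higher with OVOL2 and 2 lower, 3.51% in each direction, beside 1.9% higher and 1.17% lower over all genes. THBS1 was at 15.7 FPKM with OVOL1 and 56.4 FPKM with OVOL2 (1.85), and ID3 was at 2.34 and 5.18 FPKM (1.14). CTGF, one of the lower genes, was at 26.2 and 10.1 FPKM (-1.37). The ratios of the OVOL lines taken directly and through PC3-EMT14 differed by at most 0.00022 on the log2 scale over the 10 genes, as the same libraries underlie both.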

How the data were processed

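RNA was sequenced as 50-base paired-end reads from 10 samples of 4 PC3 lines. The authors aligned the reads to UCSC hg19 (TopHat) and compared lines pairwise in Cuffdiff, with upper-quartile normalization and corrections for sequence bias and multiply mapped reads. The submitters' processing notes also name FastQC and Cufflinks. The FPKM values were made by the authors, deposited as 1 pooled value per line in each of 4 gene and 4 isoform tables, so the depth of the samples is unknown. The tables also hold the authors' fold changes, test statistics, p-values, q-values and calls, which were not used. Their status column was read only for failed calculations, and 0 columns of values per sample were left unused.

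Ratios were taken within a table, without a pseudocount, in Python 3.11.15 with numpy 2.4.6 and pandas 2.3.3, and plots were drawn with matplotlib 3.10.9. The counting rule was tested on simulated data. Tables were normalized separately, so levels of a line set across tables can differ by their scaling. No test was possible on pooled values. Positions are as deposited, with the start counted from 1, on hg19. Of the 10 genes all but SMAD7 reached the minimum of 1 FPKM. Gene symbols were matched exactly, and promoters were matched by symbol to RefSeq sequences on GRCh38.p14, using the 250 bases before each start; all 10 genes matched. The named pathway genes are those past 2-fold in at least 1 comparison with PC3-EMT14, and 1 of them is counted with its list but not reported here on its own. The 10 genes, the pathway list, the marker lists and the rules were chosen with earlier results of these data known. Alternatives were a 1.5-fold limit, no minimum, a pseudocount, centring, isoform sums, a mean PC3-EMT14 value and other isoform limits.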

Additional observations from a re-analysis of the deposited data

How the results depend on the processing

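No log2 ratio of the 10 genes that passed 2-fold changed sign under any alternative run. Of the others, that of SMAD3 between the OVOL lines went from -0.03 to 0.01 with centring. Adding 1 FPKM to both values moved 15 of the 40 ratios by over 0.1, and centring on the median, summing isoforms and a mean PC3-EMT14 value moved none. With that pseudocount, 3 of the 10 genes rather than 5 passed 2-fold in PC3-Epi, without TGFBR3 and SKIL, 2 rather than 3 passed with OVOL1, without LTBP1, and 3 rather than 7 of the other pathway genes passed with OVOL1. A 1.5-fold limit gave 2 of the 10 genes instead of 1 between the OVOL lines, and for the pathway genes 32 instead of 16 in PC3-Epi, 16 instead of 7 with OVOL1, 19 instead of 9 with OVOL2 and 8 instead of 4 between the OVOL lines. Without the minimum of 1 FPKM the pathway counts were 14 with OVOL2 and 7 between the OVOL lines. Isoform shifts of the 10 genes numbered 10 at 10 percentage points and 2 at a minimum of 5 FPKM, against 6. No paired analysis was possible because the deposited columns pool the samples of a line and carry no replicate numbers, and for the same reason no sample could be left out. Which of these differences exceed the spread between samples cannot be read from the pooled values.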
